A study of Homo sapiens with 4 samples.

Results

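The genes described here encode proteins of the melanosome, the organelle in which pigment cells make melanin. They were followed in WM239A, a human melanoma line, and in 3 metastatic sublines derived from it. The 10 genes were chosen by name: PMEL, GPNMB, MLANA, TYR, TYRP1, DCT, SLC45A2, SLC24A5, OCA2 and GPR143. Of these, 9 had a row among the 19238 genes of the count table, and OCA2 was not analysed here. The groups of the study were WM239A, which its label calls poorly metastatic, 113/6-4L, with a label of high potential for metastasis to the lung, and the pair 131/4-5B1 and 131/4-5B2, whose labels give the brain instead. All 3 sublines are labelled as subclones of WM239A and no treatment is named. With a single library for every line, there were no replicates. Droplet-based 3' RNA sequencing gave counts of unique molecular identifiers (UMIs, each marking 1 captured RNA molecule) for 8173 cells, whose names ended in a suffix from 1 to 4. No name, label or file tied a suffix to a line, so the 4 barcode sets stand as unlabelled samples, no line was compared with another and no test between sets was made. Values are given in the order of barcode sets 1 to 4 unless a set is named.

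Melanin is made in stages. PMEL forms the fibrils on which the pigment is laid down, TYR oxidises tyrosine in the first and rate-limiting step, and DCT and TYRP1 act on later intermediates of eumelanin synthesis. SLC45A2, OCA2 and SLC24A5 are membrane transport proteins that act on the pH and ion content of the organelle, GPR143 is a receptor of the melanosome membrane that helps to set melanosome number and size, MLANA is a small membrane protein that binds PMEL and GPR143, and GPNMB is a transmembrane glycoprotein related to PMEL. MITF, the leading transcription factor of pigment cells, binds E-box motifs such as CATGTG before many of these genes.

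The promoter sequences of the genes that differed most between the sets, and of the 3 enzymes of the group, are shown because they carry these motifs. They are the 250 bases before the annotated start in RefSeq (build GRCh38.p14), 5′ to 3′ on the strand of the gene, and capitals mark CATGTG or its reverse complement CACATG. The stretch for TYR is chr11:89177625-89177874 on the plus strand, that for TYRP1 chr9:12693135-12693384 on the plus strand, that for DCT chr13:94479683-94479932 on the minus strand and that for GPR143 chrX:9765848-9766097 on the minus strand.
TYR: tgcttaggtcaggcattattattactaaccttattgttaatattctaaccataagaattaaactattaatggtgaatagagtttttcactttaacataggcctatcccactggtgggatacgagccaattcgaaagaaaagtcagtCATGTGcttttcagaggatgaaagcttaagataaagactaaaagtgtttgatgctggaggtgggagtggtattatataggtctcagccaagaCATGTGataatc
TYRP1: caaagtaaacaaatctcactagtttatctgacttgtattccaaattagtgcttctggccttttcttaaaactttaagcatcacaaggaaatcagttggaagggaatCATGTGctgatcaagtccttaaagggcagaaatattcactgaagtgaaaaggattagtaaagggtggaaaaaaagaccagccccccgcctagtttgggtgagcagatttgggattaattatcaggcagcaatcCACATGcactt
DCT: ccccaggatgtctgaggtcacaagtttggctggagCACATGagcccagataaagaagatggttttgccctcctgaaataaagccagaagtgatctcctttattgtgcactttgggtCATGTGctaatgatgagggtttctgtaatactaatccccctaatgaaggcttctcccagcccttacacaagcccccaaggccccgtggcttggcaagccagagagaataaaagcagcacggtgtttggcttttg
GPR143: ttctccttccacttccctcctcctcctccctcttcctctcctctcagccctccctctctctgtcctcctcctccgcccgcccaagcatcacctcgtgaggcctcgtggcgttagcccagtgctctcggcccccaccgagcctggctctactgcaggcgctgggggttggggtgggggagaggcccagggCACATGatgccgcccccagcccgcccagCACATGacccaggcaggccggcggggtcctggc
Shorter stretches around the matches of GPNMB (from the 250 bases at chr7:23246525-23246774, plus strand) and SLC24A5 (chr15:48120740-48120989, plus strand) read as follows.
GPNMB, first match: gtgagtcataagCACATGagttgtaagagg
GPNMB, second match: gcttaataccatCACATGatcctccccgag
SLC24A5: aaggagactcctCACATGatccagttt
The matches of TYR began 104 and 12 bases before the start, those of TYRP1 144 and 11 bases, those of DCT 215 and 134 bases, those of GPR143 61 and 33 bases, those of GPNMB 123 and 62 bases and that of SLC24A5 15 bases. The promoter table held 8 of the 10 genes, and PMEL and SLC45A2 were not among them. CATGTG was searched on both strands of the window from 250 bases before to 50 bases after the start. It occurred in 7 of the 8 genes (DCT, GPNMB, GPR143, OCA2, SLC24A5, TYR and TYRP1) and not in MLANA, beside 11.1% of 35116 windows and 13.4% of 27305 genes in the whole table. For DCT, which had a further start site in the table, the matches lay before the start shown here. CACGTG, which shares all but 1 base with CATGTG and reads the same on both strands, occurred in 0 of the 8 genes and in 7.26% of all windows. The longer TCATGTG, searched after the sequences had been seen, occurred in 6 of the 8 genes and in 3.59% of all genes. Such a match describes letters and does not show that a factor was bound.

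The sets held 2121, 1779, 2140 and 2133 cells with 71182648 to 71915542 UMIs each. The median cell had 33556, 41131, 33152.5 and 33390 UMIs, and its median mitochondrial share was 5.41%, 6.73%, 7.12% and 6.83%. A total of 39 barcodes occurred in more than 1 set. All 6 markers listed for melanocytes or melanoma cells (SOX10, MITF, S100B, PAX3, PMEL and MLANA) reached 10 CPM (UMIs of a gene per 1000000 UMIs of the set) in at least 1 set, with sums of 6693 to 9353 CPM. The macrophage markers CD14 and PTPRC had at most 3 UMIs in any set, and CD68 alone of the 4 macrophage genes with a row reached 10 CPM. Lymphocyte and endothelial markers with a row stayed under 10 CPM, while 1 of 5 fibroblast markers (LUM) and 2 of 5 epithelial markers (KRT8 and KRT18) reached it, as did the Schwann cell markers PMP22 and MBP. Intervals below are exact 95% intervals that cover counting error only, not the variation between libraries. Those of CPM and of ratios, also ratios between groups of cells, leave out the variation between cells as well and are too narrow where it is large.

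The 9 genes together took 5445, 5834, 8932 and 8328 CPM, so sets 3 and 4 carried more melanosome gene RNA than sets 1 and 2. Most of it came from PMEL and MLANA. PMEL gave 40.4%, 47.4%, 54.7% and 54.0% of the UMIs of the 9 genes and MLANA 40.1%, 37.8%, 31.3% and 32.0%. In set 1 both genes were at about the same UMI level, while in sets 3 and 4 PMEL was clearly above MLANA. CPM from 3' ends are not scaled by transcript length.

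**Figure D1:**
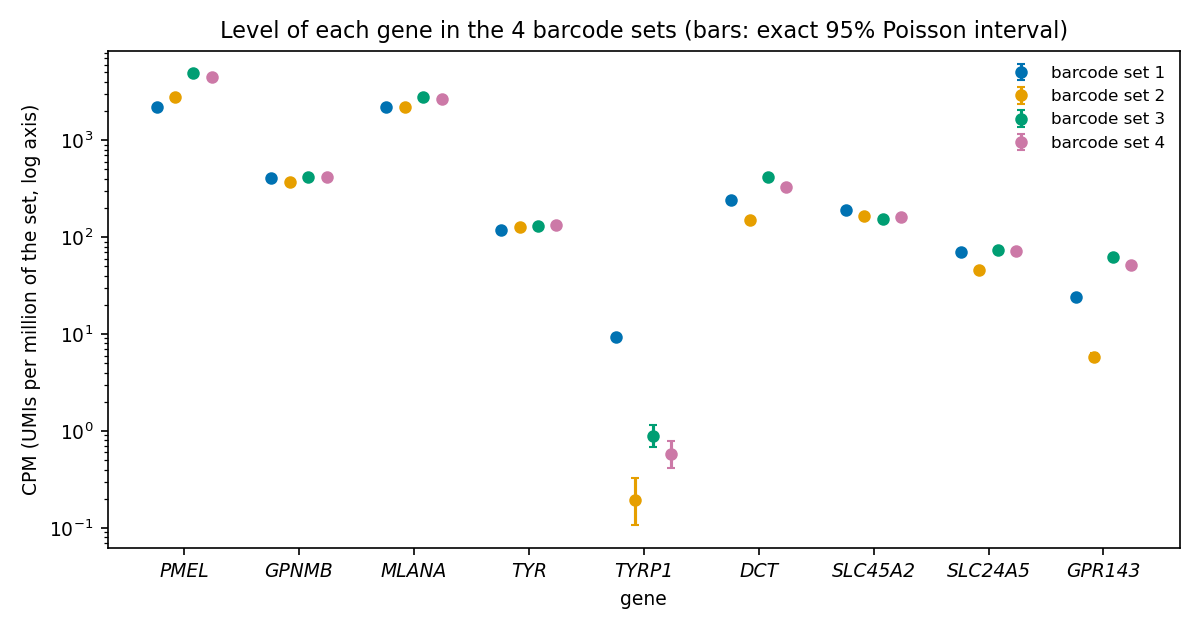
CPM of the 9 genes (log axis) in each barcode set, with exact 95% Poisson intervals that are often smaller than the point. PMEL, DCT and GPR143 were spread over more than 2-fold, TYR and GPNMB lay within 1.13-fold, and TYRP1 stood at 9.37 CPM in set 1 and under 1 CPM in the other sets.

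Among the structural and membrane proteins, PMEL had 2201, 2766, 4883 and 4496 CPM. Sets 3 and 4 were high, set 2 was between, and set 1 was lowest. The ratio of set 3 to set 1 was 2.22 (2.20 to 2.23), and that of set 3 to set 4 was 1.09 (1.08 to 1.09). Every deposited cell had a PMEL UMI, and the median cell held 61, 101, 151.5 and 138 of them. MLANA followed the same order of sets over a smaller range, with 2182, 2203, 2795 and 2667 CPM and a ratio of set 3 to set 1 of 1.28 (1.27 to 1.29). Sets 1 and 2 differed by 1.01-fold (1.003 to 1.02) in MLANA, where PMEL differed by 1.26-fold (1.25 to 1.26). GPNMB had 407, 371, 414 and 419 CPM, with set 2 lowest and the other sets close together. Its ratio of set 4 to set 3 was 1.01, with an interval from 0.997 to 1.03 that includes 1, so counting error alone left these sets without an order.

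Of the enzymes, TYR differed least between sets. It had 119, 126, 130 and 133 CPM, a ratio of highest to lowest set of 1.12 (1.08 to 1.15), and its span was smaller than that of all but 12.4% of the 7421 measured genes, those with 10 CPM or more in any set. Sets 3 and 4 could not be ordered, since their ratio of 1.02 had an interval from 0.9895 to 1.05. DCT, the dopachrome tautomerase, had 242, 151, 421 and 327 CPM. Set 2 was lowest and set 3 highest, 2.80-fold apart (2.74 to 2.86), and set 1 lay between sets 2 and 4. The order of the sets for DCT thus differed from that for PMEL, because set 1 exceeded set 2 in DCT by 1.61-fold (1.57 to 1.65) and fell below it in PMEL.

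TYRP1 was weak in every set. It had 671, 14, 64 and 41 UMIs, or 9.37, 0.195, 0.896 and 0.576 CPM, and so stayed under the 10 CPM needed to be called measured. Set 1 held most of it. The ratio of set 1 to set 2 was 48.1, with a wide interval (28.5 to 88.5) because set 2 had so few UMIs, and the ratio of set 1 to set 3 was 10.5 (8.09 to 13.7). A TYRP1 UMI was found in 386 of 2121 cells of set 1 (18.2%, 16.6% to 19.9%), and in 0.787%, 1.963% and 1.78% of the cells of sets 2, 3 and 4. Of the cells of set 1, 256 had exactly 1 UMI and 21 had 5 or more, with 14 in the highest cell. In set 3 a single cell held 12 of the 64 UMIs. No cells that should lack these genes were found in the table, so the share that free RNA alone gives was not measured here. Set 1 was also highest in other genes of the marker lists, among them the fibroblast marker LUM (12.7, 2.18, 0.182 and 0.407 CPM) and the Schwann cell marker MBP (314, 183, 192 and 196 CPM). Their part in the TYRP1 difference was not tested.

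The transporters spanned 1.25-fold and 1.60-fold. SLC45A2, which acts on melanosome pH, had 191, 166, 152 and 163 CPM. It was the only one of the 8 measured genes whose highest set was set 1, with a ratio of set 1 to set 3 of 1.25 (1.22 to 1.28), and sets 2 and 4 could not be ordered (ratio 1.02, 0.991 to 1.04). SLC24A5, a sodium, calcium and potassium exchanger, had 69.9, 45.8, 73.0 and 71.3 CPM. Set 2 was lowest, 1.60-fold below set 3 (1.53 to 1.67), a wider span than that of 86.9% of the measured genes, while sets 1, 3 and 4 lay within 1.05-fold of each other and set 4 had intervals including 1 against both of the others.

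GPR143, the receptor, had the widest span of the 8 measured genes, with 23.8, 5.80, 63.0 and 51.8 CPM. The ratio of set 3 to set 2 was 10.9 (9.82 to 12.04), that of set 3 to set 1 was 2.64 (2.499 to 2.80) and that of set 3 to set 4 was 1.22 (1.16 to 1.27). More cells had a GPR143 UMI in the sets where its level was higher, in 30.6%, 13.8%, 67.8% and 61.4% of deposited cells. With all cells cut at random to the same 10000 UMIs (thinned), which removes the difference in depth, these shares were 17.0%, 5.06%, 40.4% and 35.0%. Cells with a UMI also held more of them, on average 2.63, 1.70, 3.10 and 2.82 at the deposited depth, and 5 or more were found in 4.81%, 0.169%, 14.3% and 10.5% of cells.

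Thinned to the same depth, DCT, TYR, SLC45A2 and SLC24A5 had sets high and low much as in their CPM. DCT was detected in 75.5%, 66.4%, 91.0% and 86.3% of cells, TYR in 66.1%, 69.7%, 72.2% and 73.4%, SLC45A2 in 80.8%, 78.4%, 74.5% and 75.0%, and SLC24A5 in 48.7%, 38.0%, 51.5% and 50.9%. GPNMB was detected in 96.3% to 97.4% of cells, and PMEL and MLANA in 99.9% to 100% of cells. A cell without a UMI at this depth need not lack the transcript.

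**Figure D2:**
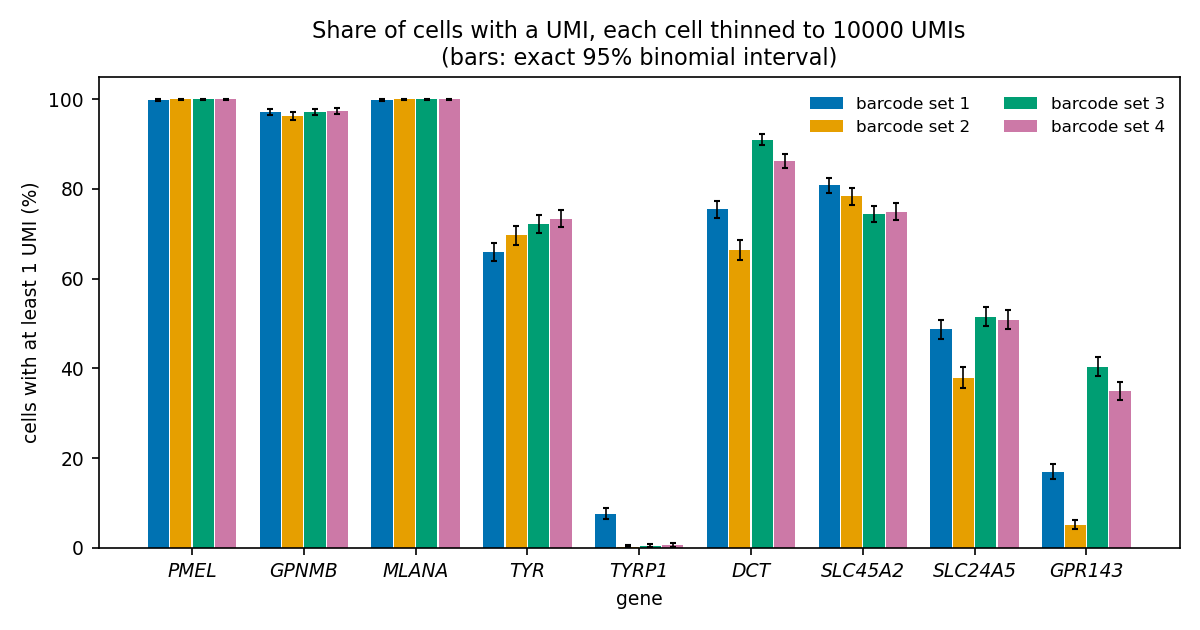
Share of cells with at least 1 UMI of each gene (percent, from 0) after thinning every cell to 10000 UMIs, by barcode set, with exact 95% binomial intervals. GPR143 ranged from 5.06% in set 2 to 40.4% in set 3, while PMEL, GPNMB and MLANA were found in nearly every cell.

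A span of 2-fold or more over the 4 sets on the log2(CPM + 1) scale was reached by 3 of the 8 measured genes, PMEL, DCT and GPR143, beside 5.85% of the 7421 genes. The median span of the 8 genes was 0.51 on that log2 scale and that of all measured genes 0.33. The genes of the group did not move as a block, since PMEL, DCT and GPR143 were at or above the 95th percentile of all spans (95.5, 97.2 and 99.4) and TYR and GPNMB at 12.4 and 16.2. Set 3 exceeded set 1 by 2-fold in 2 of 8 genes (PMEL and GPR143; 2.02% of all genes) and set 2 in 2 of 8 (DCT and GPR143; 0.755%). Set 4 exceeded set 1 in 2 of 8 (1.83%) and set 2 in 2 of 8 (0.499%). Set 1 exceeded set 2 in 1 of 8, GPR143 (1.59%), and set 3 or set 4 in 0 of 8 (2.33% and 2.29%). Set 2 exceeded set 1, set 3 or set 4 in 0 of 8 (1.59%, 0.997% and 0.903%). Between sets 3 and 4 no gene of the group was 2-fold apart, as was true of nearly all genes (0.0539% higher in set 3). Set 2, lowest in DCT, GPR143, SLC24A5 and GPNMB, was also the set with the fewest cells and the most UMIs per cell, and the part of depth in these levels was not tested. The 39 shared barcodes made no difference to the count of 3 genes, which was also 3 without their cells.

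PMEL varied between the cells of a set by far more than counting noise. The Fano factor, the variance over the mean of thinned UMIs and 1 under counting noise alone, was 10.6, 7.60, 12.1 and 11.2 for PMEL, beside a median of 1.09 to 1.12 over the 2259 genes with at least 50 CPM in every set. In the thinned cells of set 3 the 5th and 95th percentiles of PMEL were 17 and 95 UMIs. MLANA, at a similar level in set 1, had Fano factors of 3.95, 2.61, 2.5 and 2.55, so its UMIs varied less between cells than those of PMEL. DCT had 3.21, 2.45, 3.19 and 2.69 in spite of its lower level. The Fano factors of GPNMB (1.34 to 1.45), GPR143 (1.23 to 1.58), SLC45A2 (1.15 to 1.36) and TYR (1.19 to 1.28) were lower, and those of SLC24A5 (1.01 to 1.09) were close to counting noise. A Fano factor tends to grow with the level of a gene, so these values compare genes only at their own levels.

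PMEL and MLANA varied together between the cells of each set. The Pearson correlation of log(1 + UMIs) over 2115, 1778, 2139 and 2132 thinned cells was 0.489, 0.171, 0.251 and 0.283. Cells of a set share a library, so these are descriptions of that library with no p-value. SLC45A2 was the other gene that went with both, at 0.247, 0.156, 0.101 and 0.154 with PMEL and at 0.158, 0.123, 0.122 and 0.138 with MLANA. These were the 3 pairs of the 36 among the 9 genes with r of at least 0.1 in all 4 sets, and 24 pairs reached 0.1 in no set. In set 3 both pairs of SLC45A2 were close to 0.1 and fell under it in some settings, PMEL to 0.083 by Spearman correlation, 0.084 within the 5th to 95th percentile of mitochondrial share and 0.090 after adjustment for depth, mitochondrial share and phase scores, and MLANA to 0.098 within that mitochondrial range.

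DCT went with the structural genes mainly in set 1. Its r with PMEL was 0.287 there and 0.0025 to 0.048 in the other sets, and its r with MLANA was 0.300 in set 1 and 0.050 to 0.108 elsewhere. TYR, the enzyme of the first step, had an r of 0.062, 0.088, 0.002 and 0.031 with PMEL. With MLANA it lay between -0.058 and 0.018. In thinned cells the highest r of TYR with any gene of the group was 0.103, with GPNMB in set 1. That pair had 0.091, 0.077 and 0.059 in sets 2 to 4. At the deposited depth the r of TYR with PMEL was 0.097, 0.137, 0.072 and 0.063. The mean thinned cell had 1.23 to 1.39 UMIs of TYR and 1.52 to 1.88 of SLC45A2. At such counts a weak correlation is hard to tell from counting noise, so a low r does not show that genes vary apart. TYRP1 had no r of 0.1 or more with any of the 8 other genes in any set.

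**Figure D3:**
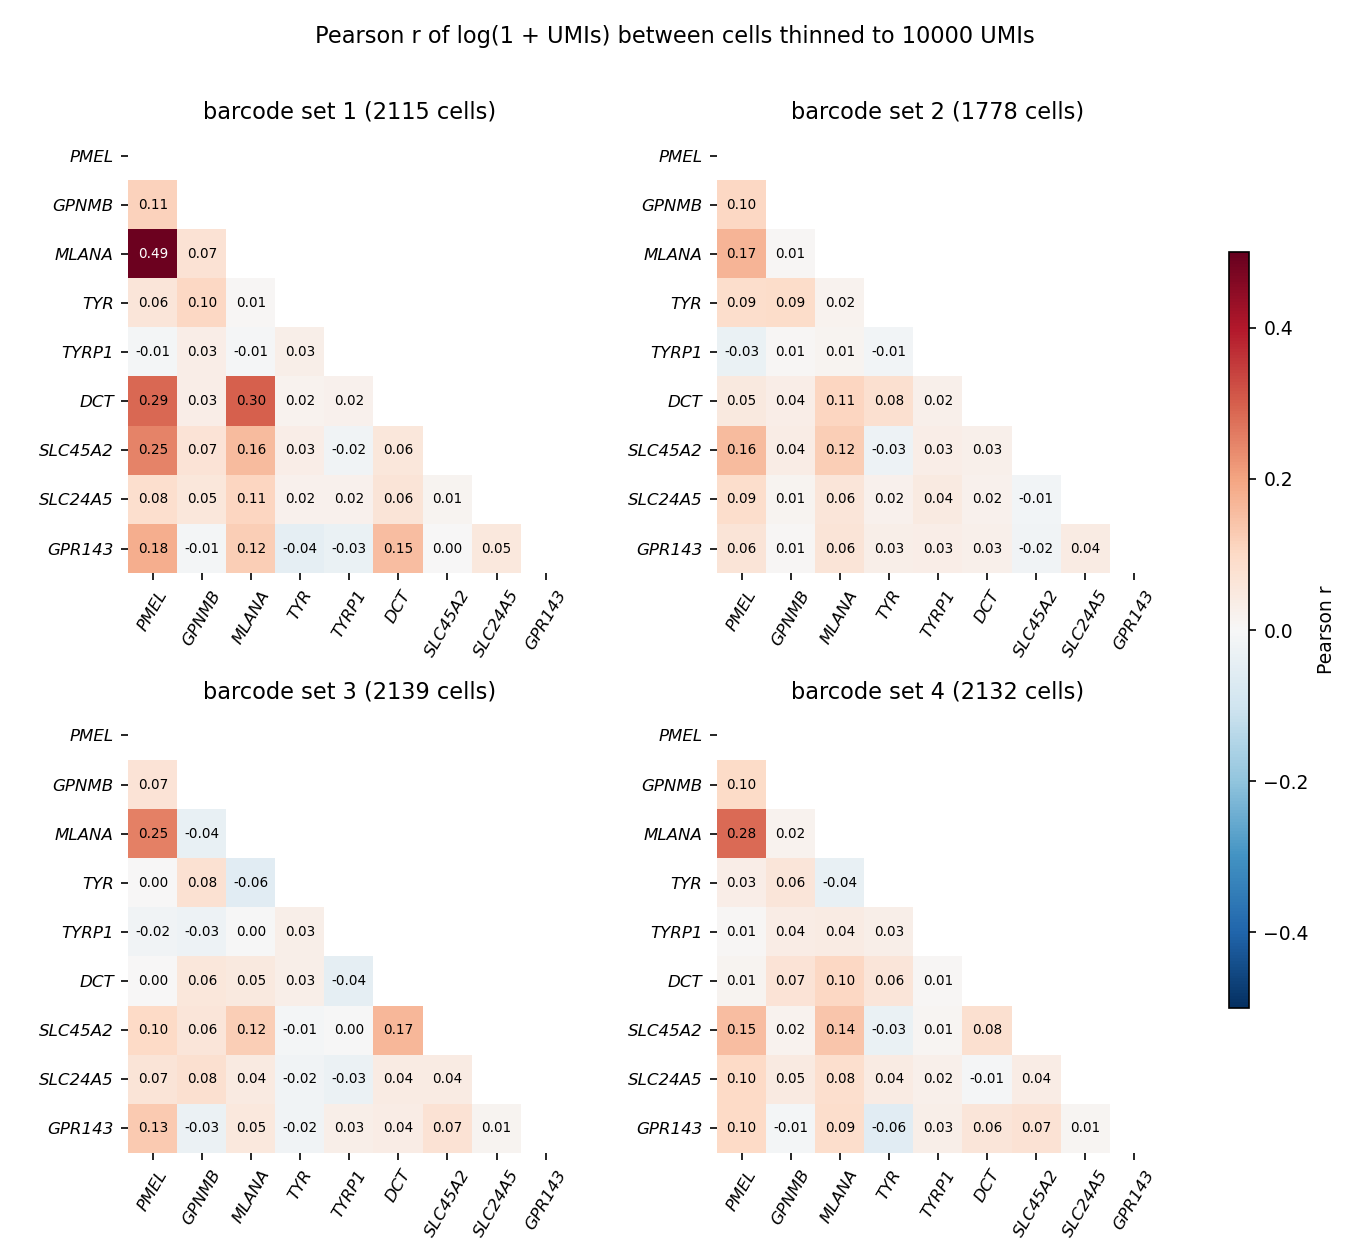
Pearson r of log(1 + UMIs) for each pair of the 9 genes over the cells of each barcode set, thinned to 10000 UMIs (colour from -0.5 to 0.5, value printed in each square). PMEL with MLANA was the highest pair in every set, from 0.171 in set 2 to 0.489 in set 1. The squares of TYR lay between -0.058 and 0.103 and those of TYRP1 between -0.045 and 0.044.

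Over the 28 pairs of the 8 measured genes the median r was 0.066, 0.039, 0.047 and 0.060, beside a median near 0.001 over all pairs of measured genes. An r of at least 0.1 was reached by 11, 5, 5 and 4 of the 28 pairs, beside 0.245%, 0.178%, 0.193% and 0.177% of all gene pairs. These counts depend on depth and were 14, 9, 12 and 12 at the deposited depth and 13, 5, 10 and 8 in cells thinned to 20000 UMIs. In G1 cells alone they were 11, 6, 7 and 11. By Spearman correlation they were 9, 3, 4 and 3, and within the 5th to 95th percentile of mitochondrial share 9, 3, 3 and 3. After adjustment for depth, mitochondrial share and phase scores they were 10, 5, 4 and 5. Since r in sparse counts depends on the level, the pairs were also taken among genes with at least 50 CPM in every set. There 7, 5, 4 and 4 of 15 pairs reached 0.1, beside 1.67%, 1.31%, 1.4% and 1.42% of all such pairs. Pairs share genes, and PMEL and MLANA are in most of those that reached 0.1. The floor of 50 CPM does not match levels, since PMEL had at least 2201 CPM and MLANA at least 2182 CPM in every set.

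The same relation was read in UMIs by ranking the thinned cells of a set by PMEL. In set 1 the 25% of cells with the most PMEL had 2677 CPM of MLANA and the 25% with the least 1565 CPM, a ratio of 1.71 (1.66 to 1.76). The ratio was 1.13, 1.18 and 1.23 in sets 2 to 4, so all 4 sets had more MLANA in the cells with more PMEL. SLC45A2 had ratios of 1.74, 1.37, 1.23 and 1.37 and SLC24A5 of 1.29, 1.32, 1.28 and 1.39, each with an interval above 1. GPR143 had the widest ratios, 3.84 (2.81 to 5.34), 2.24 (1.23 to 4.22), 1.65 (1.41 to 1.94) and 1.62 (1.34 to 1.95), of which the first rested on 196 and the second on 38 UMIs in the cells with the most PMEL. DCT differed by 2.05-fold (1.89 to 2.22) in set 1 and by 1.24-fold (1.12 to 1.38) in set 2, and its ratios of 1.05 and 1.04 in sets 3 and 4 had intervals that included 1. TYR had 1.22, 1.28, 1.02 and 1.14, with 1 inside the interval in set 3. GPNMB had 1.17, 1.17, 1.10 and 1.11. The median cell among those with the least and the most PMEL had 32491 and 33130.5 UMIs in set 1, 41430.5 and 39299 in set 2, 31952.5 and 30794.5 in set 3 and 31745 and 32192 in set 4. The mitochondrial share of these cells differed most in set 1, at 5.16% and 5.74%, and its part in the ratios was not tested.

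**Figure D4:**
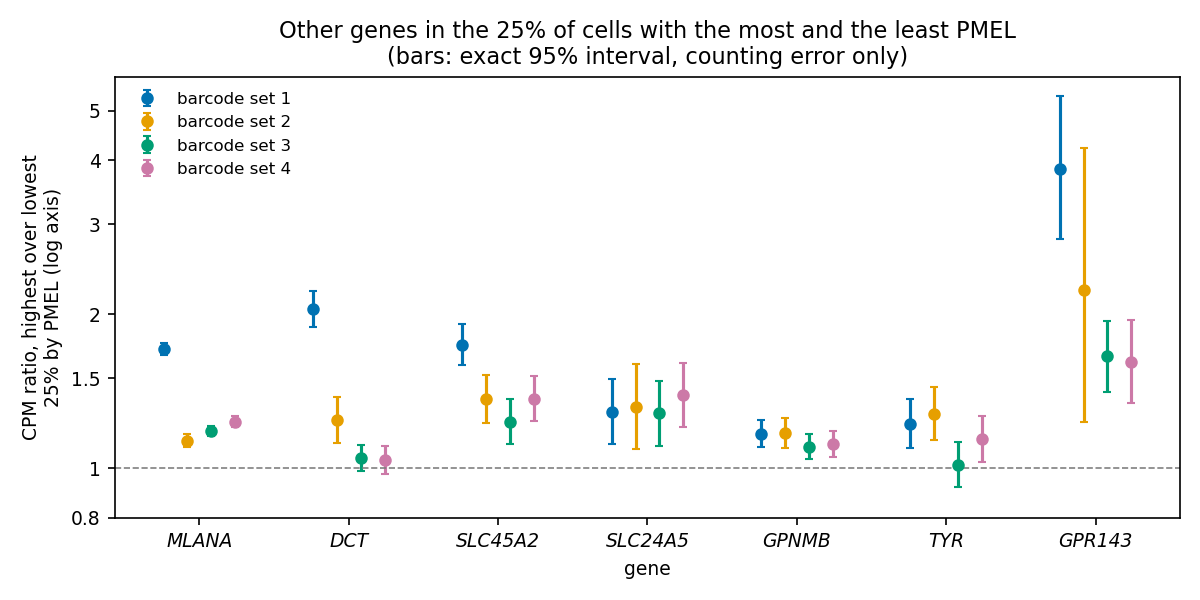
Ratio of the CPM of each gene in the 25% of cells with the most PMEL UMIs to that in the 25% with the least (log axis), by barcode set, with exact 95% intervals and a dashed line at 1. MLANA, SLC45A2, SLC24A5, GPNMB and GPR143 had intervals above 1 in all 4 sets, TYR in sets 1, 2 and 4, and DCT in sets 1 and 2.

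GPR143, found in a minority of thinned cells, was also used to part the cells. In set 1 the 359 cells with a GPR143 UMI had 2822 CPM of PMEL and the 1756 cells without one 2082 CPM, a ratio of 1.36 (1.33 to 1.39). DCT was 1.52-fold higher (1.42 to 1.61) and MLANA 1.13-fold higher (1.10 to 1.16) in the same cells. In sets 2, 3 and 4 the PMEL ratios were 1.16, 1.11 and 1.09 and the DCT ratios 1.09, 1.08 and 1.12, of which that of set 2, with 90 cells holding a GPR143 UMI, had an interval including 1 (0.922 to 1.28). TYR had intervals including 1 in sets 1 to 3 and a ratio of 0.911 (0.843 to 0.984) in set 4. The 161 thinned cells of set 1 with a TYRP1 UMI were compared in the same way. TYR was at 1.20 (1.05 to 1.38) and DCT at 1.12 (1.02 to 1.23) of the level in the other cells. PMEL was at 0.957 (0.924 to 0.9905) and GPR143 at 0.664 (0.429 to 0.986). These intervals leave out the variation between cells. In set 1 the r of TYRP1 was -0.010 with PMEL, 0.023 with DCT, 0.029 with TYR and -0.034 with GPR143. No difference of these cells is therefore read from the ratios.

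Outside the group, the 3 genes most like PMEL between cells were APOE, CD63 and LGALS3, by mean r over the 4 sets among 2253 genes with at least 50 CPM in every set. APOE encodes apolipoprotein E and CD63 a tetraspanin of endosomes, both of which take part in the sorting and assembly of PMEL fibrils. The r of APOE with PMEL was 0.455, 0.468, 0.557 and 0.546, and that of CD63 was 0.462, 0.422, 0.465 and 0.502. In sets 2, 3 and 4 both were above the r of PMEL with MLANA. APOE also had the set order of PMEL, with 412, 846, 1444 and 1210 CPM, whereas CD63 had 6412 to 6835 CPM in all sets. LGALS3, which encodes a galectin, had an r of 0.491, 0.277, 0.332 and 0.385. The lowest mean r with PMEL belonged to HMGA1, a chromatin protein (-0.201), and UBE2S, an enzyme of mitotic ubiquitination (-0.198).

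MLANA shared LGALS3, CD63 and APOE with PMEL among its 5 most similar genes, and added ASAH1, the lysosomal acid ceramidase, and SLC25A5, a mitochondrial carrier. The r of ASAH1 with MLANA was 0.439, 0.246, 0.232 and 0.253. DCT shared ASAH1 with MLANA. Its list was SDCBP, CHCHD6, ASAH1, GPM6B and TRPM1, with mean r from 0.157 to 0.216. TRPM1, the melastatin channel, had 95.5, 55.5, 87.6 and 87.3 CPM and so was lowest in set 2 as DCT was. The calcium-binding protein gene S100A6 had the lowest mean r with DCT (-0.223), and it had 1549, 1403, 702 and 800.1 CPM, high in sets 1 and 2.

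**Figure D5:**
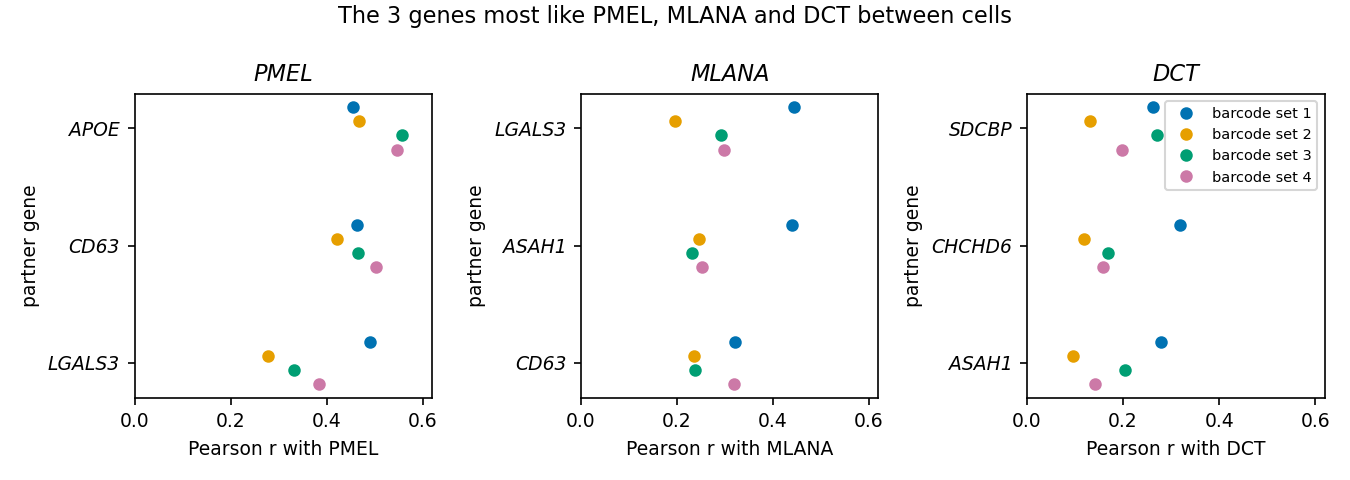
Pearson r between cells of PMEL, MLANA and DCT with the 3 genes of highest mean r for each, with 1 point per barcode set. APOE and CD63 lay between 0.422 and 0.557 with PMEL in all 4 sets, and the r of the DCT list was lower, with at most 0.318.

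SLC45A2 was most like ASAH1, NPM1, PSMA7, SLC25A5 and LDHB, at mean r of 0.135 to 0.164. GPNMB was most like CALU, B2M, ANXA5, SEPT7 and NDUFA4, at 0.141 to 0.180, and shared no gene with the lists of PMEL or MLANA. For TYR the highest mean r was 0.096, with B2M, followed by HSPA5, TMED9, RAB7A and NEAT1. Of the 2253 genes, 62 had an r of at least 0.1 with PMEL in every set, 21 with MLANA, 6 with GPNMB, 4 with DCT, 4 with SLC45A2 and 0 with TYR. An r of -0.1 or lower in every set was found for 34 genes with PMEL, 35 with GPNMB and 5 with DCT. It was found for 1 gene with MLANA and for 0 with SLC45A2 or TYR. The same counts for genes at large were not taken, and r depends on the level, so these counts do not rank the genes. TYR, GPNMB and DCT were lower in cells with more UMIs in all 4 sets, with r with the log of total UMIs of -0.105 to -0.155 for TYR, -0.143 to -0.253 for GPNMB and -0.066 to -0.181 for DCT. SLC24A5 had -0.016 to -0.078. MLANA instead had an r of 0.022 in set 1 and of 0.180, 0.121 and 0.182 in sets 2 to 4. The part of depth in the lists of similar genes was not tested.

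The regulators of the lineage had a median span of 0.51 on the log2 scale, the same as the pigment genes. MITF had 257, 196, 267 and 261 CPM, lowest in set 2, and SOX10, a transcription factor that acts upstream of MITF, had 70.4, 58.2, 61.5 and 65.4 CPM. Between cells, MITF had an r of 0.129, 0.1203, 0.082 and 0.066 with PMEL and 0.1199, 0.116, 0.084 and 0.117 with DCT. With MLANA it was 0.105, 0.121, 0.058 and 0.045, and with GPNMB 0.040 to 0.084. The r of MITF was 0.023 to 0.035 with TYR and 0.011 to 0.054 with SLC45A2. It was -0.024 to 0.072 with SLC24A5, -0.020 to 0.055 with GPR143 and -0.029 to 0.027 with TYRP1. SOX10 lay between -0.054 and 0.017 with PMEL. Of 8 measured transcription factors of the lineage list, 0 were 2-fold apart, and the widest span was that of TFAP2A, with 46.4, 31.6, 59.7 and 51.9 CPM.

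Genes for building the melanosome spanned about as much as genes at large. Of 29 measured genes of melanosome biogenesis and sorting, among them the BLOC1, AP3 and HPS complexes that carry cargo to the organelle, 0 were 2-fold apart, with a median span of 0.34 on the log2 scale beside 0.33 for all genes. The widest was HPS1, with 67.3, 93.2, 119.9 and 114.6 CPM. In the list of transport and transfer 2 of 9 were 2-fold apart. MYO5A, the myosin that moves melanosomes along actin, had 21.3, 17.0, 43.7 and 37.2 CPM, high in sets 3 and 4. SYTL2 had 5.12, 14.2, 11.3 and 10.7 CPM, low in set 1. In the list of ion, pH and metal handling 2 of 11 were 2-fold apart: the endolysosomal channel gene MCOLN3 with 40.3, 48.0, 114 and 98.6 CPM, and the cystine transporter gene SLC7A11 with 18.2, 3.25, 7.46 and 2.35 CPM. Of 4 measured receptors and ligands of pigmentation, EDNRB, the endothelin receptor of melanoblasts, was 2-fold apart, with 74.6, 32.0, 86.6 and 83.2 CPM. MC1R, the melanocortin receptor, had 38.0 to 47.4 CPM.

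The list of other pigment-cell genes had 8 of 21 measured genes 2-fold apart, and its members went in different directions. CDH3, a cadherin gene, had 0.195, 8.68, 17.97 and 14.3 CPM and QPCT, a glutaminyl cyclase gene, 4.93, 1.91, 34.7 and 29.2 CPM, both highest in sets 3 and 4. CITED1, a transcriptional coregulator gene, went the other way with 23.8, 6.31, 4.90 and 4.71 CPM, and APOE, given above, had the widest span of the remaining 5. Of 8 measured genes of the undifferentiated melanoma state, 4 were 2-fold apart: CTGF (15.9, 7.27, 2.80 and 3.15 CPM) and TNC (38.7, 33.7, 14.6 and 16.8 CPM) were higher in sets 1 and 2, JUN (16.6, 25.5, 41.0 and 38.5 CPM) was higher in sets 3 and 4, and CYR61 had 16.3, 7.58, 11.5 and 8.41 CPM. Each of these lists stands beside the 5.85% of all genes that were 2-fold apart.

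Cell cycle phase went with PMEL in all 4 sets. Cells called G2M had less PMEL than cells called G1 of the same set, at ratios of 0.906 (0.883 to 0.929), 0.802 (0.782 to 0.822), 0.788 (0.774 to 0.802) and 0.815 (0.7997 to 0.830). DCT had 0.858, 0.951, 0.837 and 0.839, with 1 inside the interval in set 2. MLANA changed less, at 0.976, 0.956, 0.936 and 0.961, with 1 inside the interval in set 1. SLC45A2 was lower in G2M cells of set 2 (0.858, 0.773 to 0.951) and set 4 (0.864, 0.780 to 0.956), and GPNMB was higher in those of set 4 (1.08, 1.02 to 1.15). The other sets of both genes, and TYR, SLC24A5 and GPR143 in every set, had intervals that included 1. With G1 cells alone, PMEL with MLANA kept an r of at least 0.1 in each set, as it did under every other setting tried, where it lay between 0.135 and 0.574.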

How the data were processed

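Libraries of WM239A and 3 sublines were made with version 2 of the Chromium 3' kit, per the labels' protocols. The submitters' processing notes name Cell Ranger 3.0.0, Seurat 3.0 and the builds hg19 and mm10, without saying which step used which. The authors deposited UMI counts per gene and cell (unit: counts), and a table on a natural log scale that was recomputed from the counts in 509 rows with a largest difference of 5.77e-15 and was not used. Between 3001 and 6999 genes were detected per deposited cell, and mitochondrial UMIs made up 19.9% of a cell at most. No doublets or free RNA were removed here. The genes and lists were chosen with earlier results of these data known.

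CPM are the UMIs of a gene summed over the cells of a suffix, per 1000000 UMIs of that sum. A gene was measured if any set gave it 10 CPM or more, spans are on log2(CPM + 1), and 2-fold describes size. With 1 library per line there is no replicate, no p-value and no SD. CPM have exact Poisson, ratios exact conditional binomial and shares exact Clopper-Pearson 95% intervals. For shares and correlations each cell was thinned to 10000 UMIs, which left out 6, 1, 1 and 1 cells. Phases came from S and G2M gene scores in scanpy 1.11.5, and TMM factors from edgeR 4.0.16. Named were all 10 genes, MITF and SOX10, of each list up to 4 measured genes that spanned 2-fold, and the 5 most similar genes by mean r for genes with at least 50 CPM in every set, leaving out mitochondrial and ribosomal protein genes. Lowest correlations, marker genes, and TFAP2A, HPS1, MC1R and TRPM1 were named after their values were seen. Some items of these lists are not reported here. The counts of 2-fold genes, the thinning and the correlations were checked on simulated data, and the intervals were not.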

Additional observations from a re-analysis of the deposited data

Results flagged for a closer look

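TYRP1 was set apart by 1 barcode set. Its level in set 1, 9.37 CPM, lay far from the 0.195, 0.896 and 0.576 CPM of the other sets, with a gap to the nearest of them that made up 0.924 of the whole range. For SLC24A5, set 2 lay apart at 45.8 CPM from the 69.9, 73.0 and 71.3 CPM of the other sets, with a gap of 0.884 of the range. Of the 9 genes looked at, these 2 were past Dixon's critical value for 4 samples at the 95% level, and chance alone passes it in about 1 gene in 20. The 4 sets are different unlabelled lines and not replicates, so the measure describes their spacing only.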

How the results depend on the processing

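The count of 3 genes 2-fold apart was 3 or 4 under the 10 alternatives. It was 4, with TYRP1 added, without a filter on low genes, with totals that leave out mitochondrial and ribosomal protein genes, and in G1 cells alone. Totals without those genes raised the median of all genes by 0.47 to 0.53 on the log2 scale in the 4 sets alike. PMEL, DCT and GPR143 were called under each of these settings. The median r of the 28 pairs in set 1 moved from 0.066 to 0.1122 at the deposited depth, as values per 10000 UMIs of a cell, where 14 pairs reached 0.1, and the cause was not tested. The other 31 alternative values of the median r moved by less than their interval. Of the log2 ratios of single genes 19 of 72 moved beyond their interval. Correlations of single pairs moved beyond their interval in 49 of 280 settings and shares of cells in 66 of 108, of which 60 were at another depth, where fewer UMIs per cell give lower shares, and 6 came from another random draw of the same 10000 UMIs. The sign changed in 11 settings of single pairs, each with an r of at most 0.039 in size as reported. At 20000 UMIs per cell, 368, 134, 322 and 306 cells had to be left out. With the 250 bases before the start alone, CATGTG was again found in 7 of 8 genes, beside 9.42% of windows. Removing cells with shared barcodes was chosen after the data had been seen. No paired analysis was possible because no line had a second library to pair. With TMM scaling TYR spanned 0.23 and GPNMB 0.18 on the log2 scale, beside 0.16 and 0.17 as reported. The depth limits TYRP1 in sets 2 to 4 (14 to 64 UMIs) and the order of sets with intervals that include 1, which held for 5 of 54 comparisons. With 1 library per set, the other 49 were ordered beyond counting error only. TMM scaling moved the median of the measured genes by -0.056 in set 1 and by 0.025 in set 3 on the log2 scale.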
